A study of Mus musculus with 4 samples.

Results

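Gene expression was compared between the fetal hippocampus of mice whose mothers had received ethanol and that of mice whose mothers had received phosphate-buffered saline (PBS). These are 2 of the 4 arrays of the series, chosen by their titles, and the other 2 hold the forebrain under the same treatments. All mice were C57BL/6J, a common inbred laboratory strain. The pregnant dams of the ethanol groups were dosed intragastrically with a 15% ethanol solution, at 2.9 g per kg each day, for 5 days that ran from embryonic day 8 through day 12. Those of the PBS groups were dosed with PBS over the same days, and fetal tissue was taken on embryonic day 18. Each group is 1 Affymetrix array, so the comparison has no replicates, no errors and no test, and every value below describes these arrays. Whether an array holds RNA of 1 embryo or of several, their litters and their sexes are not given in the labels. A difference between litters, embryos, dissections or arrays therefore cannot be told apart from ethanol. The values are the authors' deposited log2 values, on which a difference of 1 is a 2-fold change. Differences are ethanol minus PBS. Each of the 19938 genes with a probe set of a single gene symbol was read from its brightest probe set, and 11013 of them, with a mean over the 4 arrays of at least 7.11, were kept. The other 8925 genes lay below that filter.

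The hippocampus forms at the medial edge of the dorsal telencephalon, next to the choroid plexus and the Cajal-Retzius cells of the cortical hem. Its pyramidal neurons share transcription factors such as Lhx2, Nfia and Neurod2 with the neurons of the neocortex, while striatal neurons and most interneurons arise from the ventral telencephalon. Ethanol crosses the placenta, and exposure of the fetus is known to disturb the proliferation, migration and survival of neural cells.

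By hippocampal field markers taken as a list, the arrays labelled hippocampus did not stand apart from the forebrain arrays. Prox1, the dentate gyrus transcription factor, read 8.35 in the hippocampus PBS array and 8.26 in the ethanol array, against 8.51 and 8.59 in the forebrain PBS and ethanol arrays. Zbtb20, a repressor that specifies hippocampal pyramidal neurons, read 10.75 and 10.72 in hippocampus and 10.40 and 10.49 in forebrain. Lef1, a Wnt effector needed for the dentate gyrus, read 7.67 and 7.59 in hippocampus and 7.65 and 7.72 in forebrain. Of these genes, Zbtb20 alone was higher in both hippocampus arrays than in both forebrain arrays, and Wnt8b, Wnt3a and Fibcd1 lay below the filter on the mean. Of 14 genes on the hippocampal field list 11 were kept. Their median distance from the forebrain mean was -0.03 in the hippocampus PBS array and -0.15 in the ethanol array. Over all genes kept these distances were 0.01 and -0.07. Between the hippocampus arrays, 3 of the 11 were higher and 8 lower after ethanol. The median difference was -0.09 and became 0.01 when the arrays were centred on their medians.

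Across the 11013 genes kept, the hippocampus ethanol array read lower than the PBS array for most genes. The difference was below 0 for 7632 genes (69.3%) and above 0 for 3380 genes (30.7%), with a median of -0.08. In forebrain 53.8% were below 0 and 46.1% above, with a median of -0.01. A gene that is slightly lower in the hippocampus ethanol array is thus in the majority, and the counts of the gene groups below are to be read against that share. The standard deviation of the difference over genes was 0.187 in hippocampus and 0.0941 in forebrain, and the hippocampus differences ran from -1.09 to 1.86. At a threshold of 1.5-fold, 54 genes were higher (0.49%) and 47 were lower (0.427%), against 5 (0.0454%) and 3 (0.0272%) in forebrain. Taken in either direction, 101 genes passed this threshold in hippocampus (0.917%) and 8 in forebrain (0.0726%). At 2-fold, 6 genes were higher (0.0545%) and 1 was lower (0.00908%), and no gene passed 2-fold in forebrain. The last genes inside the 1.5-fold threshold were Slc6a13 at 0.59 and Tmem108 at -0.59, and the first outside were Lin28b at 0.58 and Nr4a2 at -0.58.

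The excess of lower values depended on the level of expression. In the lowest decile of the kept genes by mean level the median difference was -0.01 and 47.5% of genes were above 0. In the 7th decile 22.6% were above 0, and in the highest decile 36.5% were, with a median of -0.04. It also depended on the scaling. After centring of the arrays on their medians 43.6% of genes were lower, after quantile normalization 54.8% were, and the median differences were 0.02 and -0.02 in place of -0.08. The split of the 1.5-fold genes moved as well: it was 54 higher and 47 lower on the deposited values, 116 and 19 after centring, 88 and 31 after quantile normalization, and 98 and 27 after a running median over expression level was taken off each array. More genes were higher than lower at 1.5-fold under each of these scalings. With the filter at the 75th percentile in place of the median the split was 23 and 30.

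**Figure D1:**
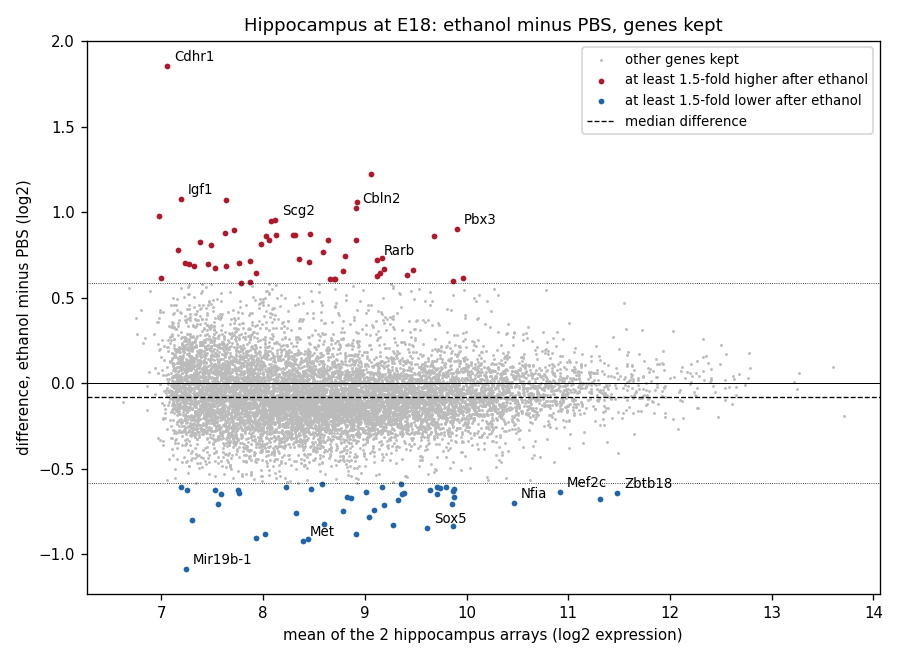
Each point is 1 of the 11013 genes kept, with the mean log2 value of the 2 hippocampus arrays on the x axis and their log2 difference, ethanol minus PBS, on the y axis, and dotted lines mark 1.5-fold. The cloud is centred below 0 (dashed line, median -0.08), and Cdhr1 at 1.86 and Mir19b-1 at -1.09 are its extremes.

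Among genes other than predicted or clone names, Cdhr1 and Igf1 had the largest differences on the higher side. AW551984, a clone name, lay between them at 1.22, with 8.45 after PBS and 9.67 after ethanol. Cdhr1, a member of the cadherin superfamily found in photoreceptors and olfactory projection neurons, read 6.13 in the hippocampus PBS array and 7.99 in the ethanol array, 3.62-fold higher, against 7.96 and 7.79 in forebrain. Igf1, the insulin-like growth factor, read 6.65 after PBS and 7.73 after ethanol, 2.11-fold higher, against 7.64 and 7.49 in forebrain. For both genes the PBS array was the low one, at a reading below the filter value, and the other 3 arrays lay close together. Cpne6, a calcium-dependent membrane-binding protein of neurons, read 7.09 and 8.17 in hippocampus against 8.46 and 8.36 in forebrain. Pcdh11x, a protocadherin, read 8.39 and 9.45 against 9.40 and 9.49. The synapse organizer gene Cbln2 read 8.40 and 9.43 against 9.11 and 9.44. In all 3 the low array was again hippocampus after PBS.

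Further genes of the highest group varied in where the ethanol array lay against forebrain. Ptgds, the prostaglandin D synthase made by meninges and choroid plexus, read 8.03 after PBS and 8.90 after ethanol in hippocampus, and 9.45 and 9.48 in forebrain. Hap1, the huntingtin-associated protein, read 7.86 and 8.73 in hippocampus and 9.19 and 9.62 in forebrain. Both hippocampus arrays were below both forebrain arrays for these genes. Pbx3, a homeodomain transcription factor, read 9.46 after PBS and 10.36 after ethanol, 1.87-fold higher, with forebrain at 9.81 and 9.91 between them. Spock3, a secreted proteoglycan gene, read 7.26 and 8.16 against 8.31 and 8.48 in forebrain. Calb2, the calcium-binding protein calretinin, read 7.88 and 8.75 against 8.85 and 9.02, and Nova1, a neuronal splicing factor, read 9.25 and 10.12 against 9.99 and 10.42. In these last genes the hippocampus PBS array was the lowest of the 4.

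In a smaller set of genes the hippocampus ethanol array was the one that stood apart from forebrain. Rarb, a retinoic acid receptor, read 8.76 after PBS and 9.48 after ethanol, 1.65-fold higher, against 8.51 and 8.31 in forebrain. Rxrg, its partner among the retinoid X receptors, read 8.86 and 9.52 against 8.51 and 8.12. Tac1, the substance P precursor, read 8.46 and 9.12 against 8.38 and 8.40. All 3 stand on the list of striatal projection neuron markers, and Rarb and Rxrg were above both forebrain arrays in the PBS array as well. The actin-linked adhesion protein gene Tns1 read 8.20 and 8.97 against 7.96 and 8.24 on the brightest of its 6 probe sets (0.77, but 0.13 for the mean of the 6, which is not past 1.5-fold). The keratin-associated protein gene Krtap5-1 read 7.70 and 8.56 against 7.75 and 7.91. The translation factor gene Eif4e1b read 6.88 and 7.59 against 6.99 and 7.19 on the brighter of its 2 probe sets. That is a difference of 0.70, but it was 0.25 on the other probe set, which is not past 1.5-fold. In each of the 6 genes the ethanol array was the highest of the 4.

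The genes lowest after ethanol include receptors, ligands and transcription factors of cortical neurons. Met, the hepatocyte growth factor receptor, read 8.85 after PBS and 7.93 after ethanol, 1.89-fold lower, with forebrain at 8.90 and 8.92. Ntsr1, a neurotensin receptor of layer 6 neurons, read 8.38 and 7.48, 1.87-fold lower, with forebrain at 8.33 and 8.22. Wnt7b, a Wnt ligand, read 8.45 and 7.58 with forebrain at 8.36 and 8.25. For these 3 genes the ethanol array was the low one, well below the other 3 arrays. Trpc4, a cation channel subunit, read 9.44 and 8.66 with forebrain at 9.36 and 9.42. Lmo7, a protein of cell junctions, read 8.70 and 7.95 with forebrain at 8.44 and 8.47. In both genes, too, the ethanol array was the lowest.

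Other genes of this group differed from the forebrain in both directions. Gpc4, a glypican that carries growth factors at the cell surface, read 8.90 after PBS and 7.99 after ethanol, with forebrain at 8.47 and 8.43. Sox5, which controls the order in which deep-layer neurons form, read 10.04 and 9.19 with forebrain at 9.77 and 9.70. Adamts3, a secreted metalloprotease that cleaves reelin, read 10.28 and 9.45 with forebrain at 9.90 and 9.94, and all 16 of its probe sets were lower after ethanol, by differences from -0.98 to -0.38. The forebrain values of all 3 genes lay between the hippocampus values. Prdm8, a regulator of upper-layer and hippocampal neurons, read 9.46 and 8.72, and Gipr, a gut hormone receptor, read 9.01 and 8.19. Insm1, a zinc finger factor of newly born neurons, read 9.54 after PBS and 8.83 after ethanol with forebrain at 9.05 and 8.88, and Rai14, an actin-binding protein gene, read 9.16 and 8.42 with forebrain at 8.72 and 8.56. For Insm1 and Rai14 the PBS array was the high one. The histone gene H4c6 was 9.69 and 8.87 in hippocampus and 9.73 and 9.07 in forebrain, lower after ethanol in both tissues.

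**Figure D2:**
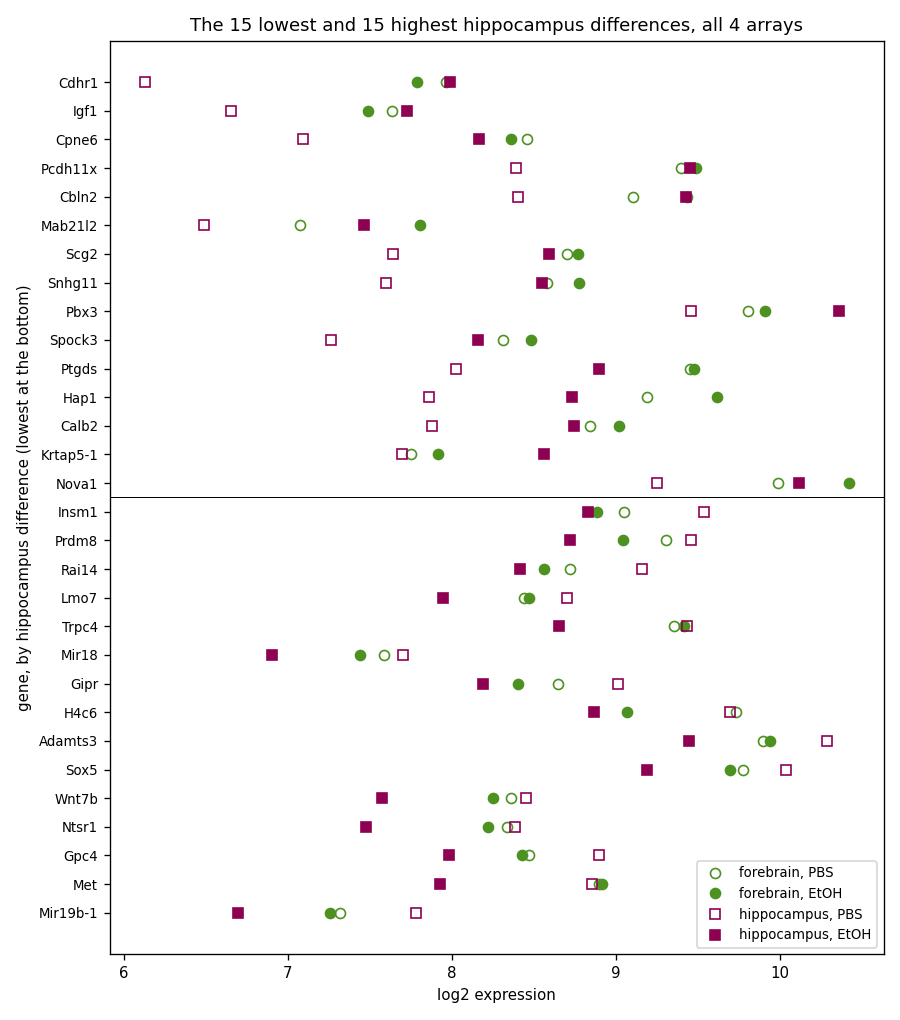
Log2 values of the 15 genes with the highest and the 15 with the lowest hippocampus difference on each of the 4 arrays, 1 array per group. Predicted and clone names were left out. In most genes of the higher set the hippocampus PBS array lies to the low side of the other arrays, as in Cdhr1 (6.13 against 7.79 to 7.99), whereas in the lower set the forebrain arrays often lie between the hippocampus arrays, as in Sox5.

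The forebrain arrays were used to ask which hippocampus array deviated. An array was counted as standing apart where its distance from the forebrain mean was at least 2 times that of the other hippocampus array. Of the 54 genes 1.5-fold higher after ethanol, the PBS array stood apart in 39 (72.2%), the ethanol array in 9 (16.7%) and neither in 6. Their median distance from the forebrain mean was -0.89 for the PBS array and -0.05 for the ethanol array. Of the 47 lower genes the PBS array stood apart in 7 (14.9%), the ethanol array in 17 (36.2%) and neither in 23 (48.9%), with median distances of 0.28 and -0.41. The forebrain mean lay between the hippocampus arrays in 45 of the 47 lower genes (95.7%), against 48.8% of all kept genes below 0. It did so in 20 of the 54 higher genes (37.0%), against 27.6% of all kept genes above 0. A wider gap between the hippocampus arrays leaves more room for a value between them. Over all kept genes above 0 the PBS array stood apart in 31.5% and the ethanol array in 22.5%, and over all below 0 in 24.0% and 37.7%. The genes past 1.5-fold were chosen by the gap between the same 2 hippocampus arrays, so the size and direction of that gap fix part of this comparison. Forebrain and hippocampus also differ as tissues, and tissue and array cannot be told apart. A low PBS array and a higher level after ethanol cannot be told apart for the 39 genes either.

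**Figure D3:**
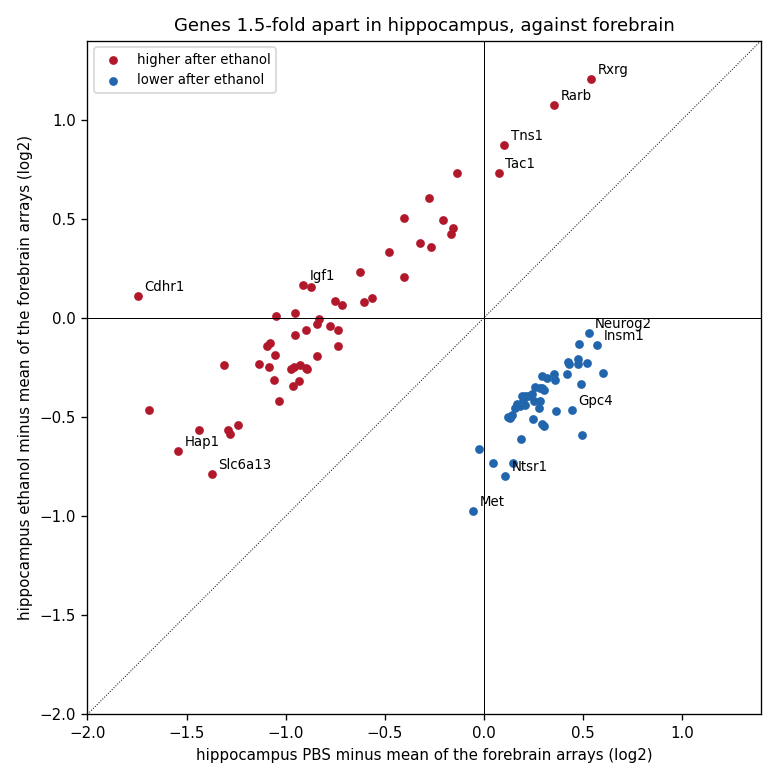
Each point is 1 of the 101 genes 1.5-fold apart, with the distance of the hippocampus PBS array from the forebrain mean on the x axis and that of the ethanol array on the y axis, in log2 units. Most higher genes lie near 0 on the y axis and at negative x (medians -0.05 and -0.89), and the lower genes spread across positive x and negative y (medians 0.28 and -0.41).

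The sign in forebrain was the same for 42 of the 54 higher genes and for 37 of the 47 lower genes, although few forebrain differences were large. Among all genes above 0 in hippocampus 62.3% were also above 0 in forebrain, and of the 7632 below 0 there were 4656 that were below 0 in forebrain too. Mab21l2, a developmental gene of eye and midbrain, was higher in both tissues, at 6.49 and 7.47 in hippocampus and 7.07 and 7.80 in forebrain. Ebf3, a transcription factor of Cajal-Retzius cells, read 7.08 and 7.89 in hippocampus and 7.58 and 8.26 in forebrain. With H4c6, these were the named genes past 1.5-fold in the same direction in both tissues. At the other end, Mpped1, a phosphoesterase gene of cortical neurons, read 11.65 and 10.98 in hippocampus and 11.40 and 11.39 in forebrain. Mef2c, an activity-dependent transcription factor, read 11.23 and 10.60 in hippocampus and 11.10 and 11.11 in forebrain. Tgfbr1, a receptor of transforming growth factor beta, read 10.21 and 9.50 in hippocampus and 9.92 and 9.93 in forebrain. In these 3 genes the forebrain arrays were nearly equal.

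Transcription factors that specify dorsal telencephalic neurons were lower after ethanol as a group. The direction of small list medians turned with the scaling: of 50 lists with at least 5 genes kept, 20 changed sign under centring, quantile normalization or removal of a running median. Of 16 dorsal pallial regulators kept, 14 were lower (87.5%, against 69.3% of all genes) and 4 of them by 1.5-fold, with a median of -0.42 against -0.08 over all genes and -0.03 for the same genes in forebrain. Their 14 lower genes remained 14 in number under all 3 scalings, and the list's median lay between -0.37 and -0.32. In bulk tissue, fewer cells of a type and less RNA per cell cannot be told apart. Nfia, a nuclear factor of glial and hippocampal development, read 10.82 after PBS and 10.12 after ethanol against 10.48 and 10.32 in forebrain. Lhx2, the selector gene of the cortex and hippocampus, read 10.21 and 9.55 against 9.94 and 9.88. Neurod2, a differentiation factor of excitatory neurons, read 9.96 and 9.33 against 9.72 and 9.71. Each read highest in the hippocampus PBS array and lowest in the hippocampus ethanol array. The proneural gene Neurog2 read 8.53 and 7.92 against 8.07 and 7.94, so that here the PBS array was the high one. The list's median distance from forebrain was 0.32 in the PBS array and -0.07 in the ethanol array.

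Among genes of cortical layers the shares on the lower side were close to the 69.3% of all genes. Of 13 upper-layer genes 10 were lower (76.9%), 1 of them by 1.5-fold, with a median of -0.24. Of 15 deep-layer factors 10 were lower (66.7%), 3 of them by 1.5-fold, with a median of -0.18. Over all genes 0.427% were lower by 1.5-fold, and the median was -0.08. Under the 3 other scalings the upper-layer median lay between -0.21 and -0.14 and the deep-layer median between -0.10 and -0.08. Unc5d, a netrin receptor gene of upper-layer neurons, read 9.21 after PBS and 8.65 after ethanol with forebrain at 9.16 and 9.17. Fezf2, which specifies subcerebral neurons, read 9.69 and 9.04 with forebrain at 9.37 and 9.15. Pcp4, a calmodulin-binding protein of deep layers and hippocampal area CA2, went the other way, at 10.51 and 11.05 with forebrain at 10.93 and 11.10.

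Markers of striatal projection neurons were all on the higher side. All 18 kept genes of 20 on the array were higher after ethanol, against 30.7% of all genes, and 4 passed 1.5-fold, with a median of 0.32. In forebrain the same genes had a median of -0.04. All 18 were higher under each of the 3 other scalings too, with medians of 0.38 to 0.42. Besides Rarb, Rxrg and Tac1, the enkephalin gene Penk read 8.81 after PBS and 9.43 after ethanol with forebrain at 9.04 and 9.11, and the transcription factor gene Ebf1 read 9.37 and 9.91 with forebrain at 8.81 and 8.77. Of the markers by which striatal neurons are usually defined, the dopamine receptor gene Drd2 read 8.92 and 9.34 with forebrain at 8.63 and 8.66, and Drd1 read 8.44 and 8.73 with forebrain at 8.45 and 8.42. Ppp1r1b, a phosphatase inhibitor in the same neurons, read 8.29 and 8.32 with forebrain at 8.12 and 8.03, so that it hardly differed between the hippocampus arrays. The ethanol array stood apart from forebrain in 12 of the 18 genes and the PBS array in 1. The list's median level was 8.78 in the hippocampus PBS array and 9.25 in the ethanol array, and 8.57 and 8.54 in forebrain, so both hippocampus arrays were above forebrain. The part that striatal tissue has in the other results was not tested.

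Thalamic and hypothalamic markers were also higher, with another pattern over arrays. All 9 genes kept of 17 were higher after ethanol, with a median of 0.35 in hippocampus and 0.18 in forebrain. Tcf7l2, a Wnt effector of the thalamus, read 8.22 after PBS and 9.05 after ethanol with forebrain at 8.73 and 9.20. Ntng1, the netrin-G1 of thalamic axons, read 7.64 and 8.48 with forebrain at 8.40 and 8.67, a difference of 0.84 that was 0.53 for the mean of its probe sets. Lhx9, a thalamic homeobox gene, read 7.61 and 7.97 with forebrain at 8.07 and 8.18. The PBS array was the low one in each, and it stood apart in 8 of the 9 genes, with a median distance from forebrain of -0.51. For the ethanol array that distance was -0.06.

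Cajal-Retzius and interneuron genes were mixed. Of 11 Cajal-Retzius markers 7 read higher (63.6%, against 30.7% of all genes) and 4 read lower, at a median of 0.40. Their differences ran from -0.44 to 0.98. The lists overlap: Calb2 is also on the thalamic and interneuron lists, and Ebf1 is also on the striatal list. In the GABAergic interneuron lineage 12 of 21 were higher (57.1%), with a median of 0.13 in hippocampus and -0.08 in forebrain. Gad1, the main enzyme of GABA synthesis, read 9.86 after PBS and 10.38 after ethanol with forebrain at 10.22 and 10.29. Somatostatin (Sst) read 9.10 and 9.73 with forebrain at 10.07 and 9.90. The serotonin receptor gene Htr3a of caudal interneurons read 7.59 and 7.12. Gad1 and Sst were lowest in the hippocampus PBS array, and Htr3a was lowest in the ethanol array.

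**Figure D4:**
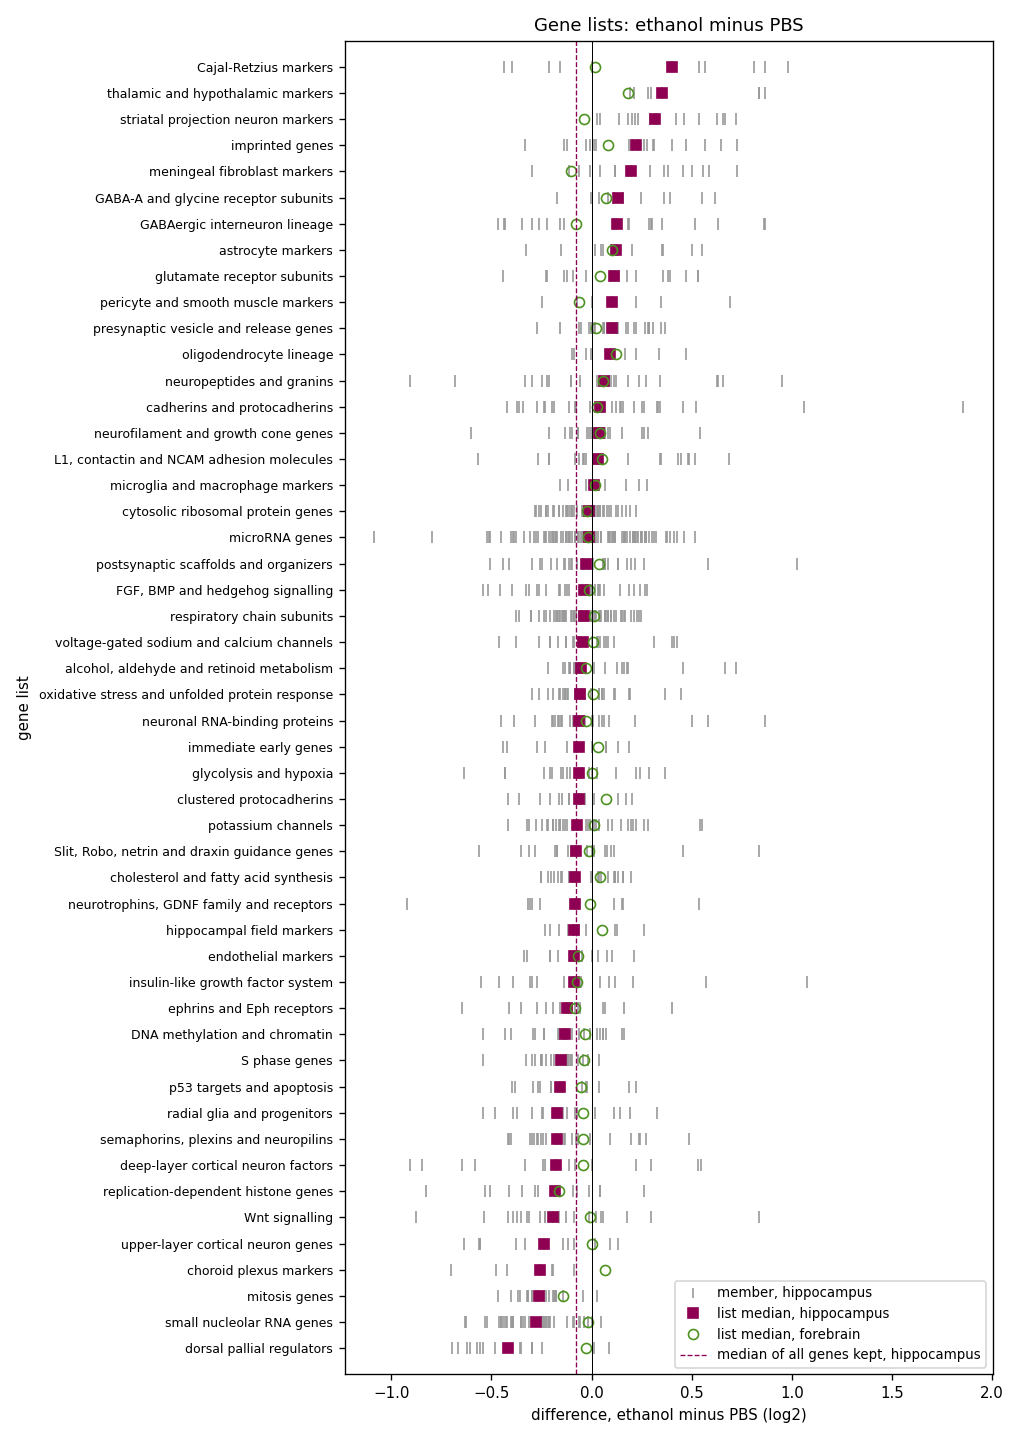
Log2 differences, ethanol minus PBS, of each gene list on the x axis, with ticks for its kept members in hippocampus, squares and circles for its median in hippocampus and forebrain, and a dashed line for the hippocampus median of all genes kept (-0.08). Cajal-Retzius (0.40), thalamic (0.35) and striatal (0.32) markers have the highest medians of the lists plotted, and dorsal pallial regulators (-0.42) the lowest. Some lists share members, such as Calb2 and Ebf1.

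Receptors and release genes of synapses were more often higher than genes at large. Of 31 presynaptic vesicle and release genes 25 were higher (80.6%), with a median of 0.10 and none past 1.5-fold. Of 12 GABA-A and glycine receptor subunits 10 were higher, with a median of 0.13, and of 20 glutamate receptor subunits 13 were higher, with a median of 0.11. Gabrg1, a GABA-A receptor subunit, read 6.69 after PBS and 7.31 after ethanol with forebrain at 7.63 and 7.67. Grin3a, an NMDA receptor subunit of development, read 8.28 and 8.82 with forebrain at 9.03 and 9.37. Syn2, a synaptic vesicle protein gene, read 8.97 and 9.28 with forebrain at 9.38 and 9.45. In all 3 the hippocampus PBS array was the lowest. Postsynaptic scaffolds were split at 16 higher and 18 lower, and voltage-gated sodium and calcium channels at 12 and 14. Of 39 potassium channel genes 15 were higher and 24 lower. The medians of these 3 lists, between -0.07 and -0.03, were above 0 after centring.

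Families of guidance molecules had shares of lower genes near the 69.3% of all genes. Of 27 semaphorins, plexins and neuropilins 21 were lower (77.8%), with a median of -0.17, and of 18 ephrins and Eph receptors 14 were lower (77.8%), with a median of -0.12. After centring the ephrin count was 10 of 18. Of 22 Slit, Robo, netrin and draxin genes 14 were lower (63.6%), with a median of -0.08. Nrp1, the semaphorin receptor, read 10.56 after PBS and 10.14 after ethanol with forebrain at 10.13 and 10.14. Epha3, an ephrin receptor, read 10.03 and 9.39 with forebrain at 9.87 and 9.78. Plxnc1, a plexin, was higher, at 9.42 and 9.91 with forebrain at 9.91 and 9.99. Nrp1 was thus high in the PBS array, Epha3 low in the ethanol array and Plxnc1 low in the PBS array. Among 23 L1, contactin and NCAM adhesion molecules 14 were higher, with a median of 0.03, and among 31 cadherins and protocadherins 17 were. Cntn4, a contactin, read 7.30 and 7.98 with forebrain at 7.86 and 7.94, whereas Cntn2, the contactin of early axons, read 10.91 and 10.34 with forebrain at 10.59 and 10.51. The contactins therefore differed in direction.

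Growth and patterning signals were mostly on the lower side, in shares close to the background. Of 24 Wnt pathway genes 18 were lower, against 69.3% of all genes, with a median of -0.19, and of 30 FGF, BMP and hedgehog genes 19 were lower, with a median of -0.04 that became 0.06 after centring. Rspo3, a Wnt amplifier of the cortical hem, read 8.25 after PBS and 7.71 after ethanol with forebrain at 7.83 and 7.74. Gli3, the hedgehog effector that patterns the dorsal telencephalon, read 8.26 and 7.72 with forebrain at 7.79 and 7.64. Sfrp2, a secreted Wnt antagonist, read 8.80 and 8.41 with forebrain at 8.89 and 9.05. Rspo3 and Gli3 were high in the PBS array, and Sfrp2 was low in the ethanol array. In the insulin-like growth factor system 6 of 15 genes were higher, Igf1 among them. Igfbp5, which binds the ligand, read 8.99 and 9.56 with forebrain at 9.90 and 9.83, and the messenger RNA-binding protein gene Igf2bp1 read 7.98 and 7.43 with forebrain at 7.90 and 7.32.

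Genes of dividing cells were lower after ethanol by small amounts. Of 23 mitosis genes 22 were lower (95.7%), with a median of -0.26 and none past 1.5-fold, and of 25 S phase genes 24 were lower, with a median of -0.15. After centring these counts were 21 of 23 and 21 of 25, with medians of -0.16 and -0.05. In forebrain all 23 mitosis genes were lower as well, with a median of -0.14. The checkpoint kinase gene Bub1 read 8.45 in hippocampus after PBS and 7.98 after ethanol, against 7.97 and 7.93 in forebrain. The spindle midzone gene Prc1 read 8.11 and 7.71 against 7.82 and 7.60, and the mitotic kinase gene Plk1 read 8.45 and 8.08 against 8.16 and 8.14. In all 3 the hippocampus PBS array was the highest, and the PBS array stood apart in 18 of the 23 mitosis genes. Of 23 radial glia and progenitor genes 18 were lower (78.3%, against 69.3% of all genes), with a median of -0.17. Among them, nestin (Nes) read 8.91 and 8.42 with forebrain at 8.72 and 8.64. Uhrf1, which guides DNA methylation at replication, read 8.44 and 7.90 with forebrain at 8.08 and 7.86. Of 15 p53 target and apoptosis genes 12 were lower (80%), with a median of -0.16, and none of the 15 passed 1.5-fold in either direction.

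The promoters of the mitosis genes often held the same motif. The CCAAT box, read as CCAAT on either strand, is known from promoters of G2 and M phase genes, and it was searched with TTTGAA on either strand, a form of the cell cycle homology region. Neither motif contains the other. RefSeq promoters of build GRCm38.p6, which run from 250 bases before to 50 bases after the start, matched 19 of the 23 genes. Only the 250 bases before the start were searched. CCAAT was found there in 16 (84.2%) against 36.3% of the 8827 kept genes with a promoter, and TTTGAA in 6 (31.6%) against 9.62%. Of 22 S phase promoters 15 held CCAAT (68.2%). CCAAT was not limited to lists on the lower side: it was in 9 of 16 striatal marker promoters (56.2%), whose genes were higher, in 9 of 15 dorsal pallial ones, in 4 of 11 upper-layer ones and in 3 of 8 thalamic and hypothalamic ones. The 250 bases before the start are shown for Bub1, Prc1 and Plk1, the mitosis genes with the largest differences, in lower case with each CCAAT, on either strand, in capitals.
Bub1, chr2:127831860-127832109, minus strand: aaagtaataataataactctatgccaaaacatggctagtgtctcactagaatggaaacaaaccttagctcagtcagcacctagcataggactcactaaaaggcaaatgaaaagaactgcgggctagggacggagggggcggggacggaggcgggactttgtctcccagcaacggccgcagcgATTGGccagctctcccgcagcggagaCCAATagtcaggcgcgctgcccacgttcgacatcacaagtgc
Prc1, chr7:80294201-80294450, plus strand: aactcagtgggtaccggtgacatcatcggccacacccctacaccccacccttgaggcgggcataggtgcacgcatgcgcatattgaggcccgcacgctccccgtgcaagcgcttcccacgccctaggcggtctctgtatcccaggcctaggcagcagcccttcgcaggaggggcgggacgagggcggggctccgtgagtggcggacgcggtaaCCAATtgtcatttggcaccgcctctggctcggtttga
Plk1, chr7:122159185-122159434, plus strand: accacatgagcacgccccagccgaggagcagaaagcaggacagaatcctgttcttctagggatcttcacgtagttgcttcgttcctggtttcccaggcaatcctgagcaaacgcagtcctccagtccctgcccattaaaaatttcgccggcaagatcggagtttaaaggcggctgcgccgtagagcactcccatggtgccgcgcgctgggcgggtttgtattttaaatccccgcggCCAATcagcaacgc
Each holds CCAAT close to the start, Bub1 holds it on both strands, and none holds TTTGAA in the stretch shown. A match is a description of these letters and no measure of binding.

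A probe set assigned to a microRNA gene gave the lowest difference among the genes kept. Such probe sets read the transcripts of these loci and are no measure of the mature microRNAs. Of 92 microRNA genes kept, 45 read higher (48.9%, against 30.7% of all genes) and 47 read lower, at a median of -0.01, which became 0.09 after centring, and 58 of the 92 were then higher. The Mir17-92 cluster lay on the other side. That cluster, chosen here after its values were seen, lies on chromosome 14 as 6 hairpins within 836 bases (chr14:115043671-115044506, plus strand, GRCm38.p6). Its mature products regulate cell cycle and survival genes. The mature sequences of the 5 members with a value are shown from RefSeq, with the seed (bases 2 to 8) in capitals, because the members fall into 3 seed groups.
miR-17-5p: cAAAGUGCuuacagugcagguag
miR-20a-5p: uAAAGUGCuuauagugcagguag
miR-18a-5p: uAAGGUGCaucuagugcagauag
miR-19a-3p: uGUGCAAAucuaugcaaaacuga
miR-19b-3p: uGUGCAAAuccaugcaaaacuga
The products of Mir17 and Mir20a share a seed, as do those of Mir19a and Mir19b-1, and that of Mir18 differs from both.

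All 5 measured members of the cluster were lower after ethanol, by differences from -1.09 to -0.52, against -0.15 to 0.15 in forebrain. Mir19b-1 read 7.78 in hippocampus after PBS and 6.70 after ethanol, 2.12-fold lower, with forebrain at 7.32 and 7.26. Mir18 read 7.70 and 6.91 with forebrain at 7.59 and 7.44, and Mir20a differed by -0.52 in hippocampus and 0.15 in forebrain. In each of the 3 the hippocampus PBS array was the highest and the ethanol array the lowest. Mir17 read 7.15 and 6.54, and Mir19a read 6.86 and 6.18, both below the filter on the mean. Mir17hg, called a host gene by its symbol although the RefSeq gene spans 1 of the 6 hairpins, differed by -0.19 and also lay below the filter. The hairpins share a stretch of genome, so their values are not independent of each other.

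A second group on chromosome 16, also chosen after its values were seen, carries seeds of another kind. The mature sequences are shown because these loci, unlike the cluster on chromosome 14, belong to the let-7, miR-99 and miR-125 families, of which let-7 and miR-125 are known from differentiating neurons.
miR-99a-5p: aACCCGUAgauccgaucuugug
let-7c-5p: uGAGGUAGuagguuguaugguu
miR-125b-5p: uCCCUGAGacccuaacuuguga
Mir99a read 9.95 after PBS and 9.44 after ethanol with forebrain at 9.52 and 9.35. Mirlet7c-1 read 8.80 and 8.40 with forebrain at 8.36 and 8.30, and Mir125b-2, below the filter, read 6.29 and 5.69 with forebrain at 5.68 and 5.66. Mir99ahg, whose RefSeq gene span held 0 of the 2 hairpins with a position, read 10.01 and 9.62 with forebrain at 9.69 and 9.57. In these loci the PBS array was the high one and the ethanol array lay near forebrain. Mir125b-1, a separate locus with the same 5p product as Mir125b-2, read 8.41 and 7.90 with forebrain at 8.06 and 7.96.

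**Figure D5:**
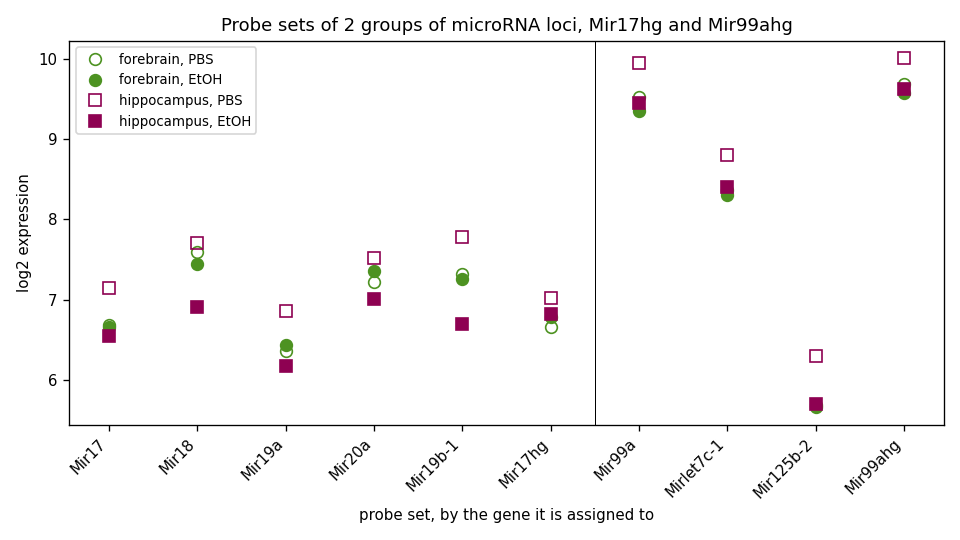
Log2 values on the 4 arrays for the probe sets of the microRNA loci on chromosomes 14 and 16 and of Mir17hg and Mir99ahg, 1 array per group. Every locus shown reads lower in the hippocampus ethanol array than in the hippocampus PBS array, and for the 5 members of the chromosome 14 cluster the ethanol array is below both forebrain arrays as well.

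Small nucleolar RNA genes were also on the lower side, and histone genes were so in a share nearer the 69.3% of all genes. Of 40 small nucleolar RNA genes 38 were lower (95%), with a median of -0.28 in hippocampus and -0.02 in forebrain. Snora52 read 9.33 after PBS and 8.70 after ethanol with forebrain at 9.30 and 9.08, and Snord104 read 8.06 and 7.44 with 7.94 in both forebrain arrays. Both genes guide the modification of ribosomal RNA and were lowest in the ethanol array. Of 15 replication-dependent histone genes 12 were lower (80%), with a median of -0.18 in hippocampus and -0.16 in forebrain. H4c4 read 10.20 and 9.69 in hippocampus and 10.34 and 9.83 in forebrain, so its differences in both tissues were -0.51. By contrast, 54 cytosolic ribosomal protein genes had a median of -0.01 and 71 respiratory chain subunits one of -0.04, and none of these passed 1.5-fold. After centring these medians were 0.09 and 0.06.

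Imprinted genes, many of which control fetal growth, were mostly higher. Of 20 kept 15 were higher, with a median of 0.22 in hippocampus and 0.08 in forebrain. Peg10, a paternally expressed gene derived from a retrotransposon, read 8.60 after PBS and 9.17 after ethanol with forebrain at 9.44 and 9.57. Nap1l5 read 8.83 and 9.47 with forebrain at 9.56 and 9.89, and Peg3 read 8.96 and 9.37 with forebrain at 9.51 and 9.62. In all 3 both hippocampus arrays were below both forebrain arrays, the PBS array most. Of 22 genes of alcohol, aldehyde and retinoid metabolism 10 read higher and 12 lower, around a median of -0.05 that became 0.04 after centring, and the 2 past 1.5-fold were Rarb and Rxrg. Of 31 oxidative stress and unfolded protein genes 11 were higher and 20 lower, with none past 1.5-fold.

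Markers of other cell types differed between the arrays as well. All 8 choroid plexus markers kept of 13 on the array were lower after ethanol, with a median of -0.26 in hippocampus and 0.07 in forebrain, and a median level of 7.91 after PBS and 7.65 after ethanol. Kcnj13, a potassium channel of the choroid plexus, read 7.91 and 7.21 with forebrain at 7.55 and 7.33. Clic6, a chloride channel protein of the same epithelium, read 7.91 and 7.44 with forebrain at 7.32 and 7.29. The hippocampus PBS array was the highest of the 4 for both genes. Of 17 meningeal fibroblast markers 13 were higher, with a median level of 7.24 after PBS and 7.37 after ethanol, against 8.05 and 8.01 in forebrain. Decorin (Dcn), a collagen-binding proteoglycan, read 7.99 and 8.71 with forebrain at 9.33 and 9.22. Both hippocampus arrays held less meningeal signal than the forebrain arrays, the PBS array least. Of 12 astrocyte markers 10 were higher in hippocampus and 10 in forebrain, with medians of 0.12 and 0.10. Aqp4, the water channel of astrocyte endfeet, read 6.98 and 7.48 with forebrain at 7.26 and 7.42. Of 15 endothelial markers 5 were higher, of 7 pericyte and smooth muscle markers 5 were, and of 9 microglia and macrophage markers 6 were, with medians of -0.09, 0.10 and 0.01, of which the endothelial one became 0.01 after centring. The part of these cells in the other results was not tested.

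Transcripts of the sex chromosomes also differed between arrays. Eif2s3y, on the Y chromosome, read 8.79 in hippocampus after PBS and 8.46 after ethanol, and 7.94 and 8.83 in forebrain. Uty read 7.97 and 7.62 in hippocampus and 7.28 and 8.07 in forebrain, and Kdm5d read 7.98 and 7.72 in hippocampus and 7.36 and 7.93 in forebrain. Xist, the RNA of the inactive X chromosome, read 11.32 and 11.38 in hippocampus and 11.48 and 11.10 in forebrain. Xist and these Y-linked genes read above the filter value of 7.11 on every array, but no detection call was used. The forebrain PBS array had the lowest Y-linked and the highest Xist readings. Its Uty and Kdm5d readings lay close to the filter value, and whether it held Y-linked RNA was not tested. The part of sex in the comparison was not tested.

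For genes with several probe sets the direction could be read more than once on the same arrays. Of the 54 higher genes 8 had more than 1 probe set, and in 5 of them (62.5%) all probe sets were higher. All 3 lower genes with several probe sets were lower in each. Among all 822 kept genes with several probe sets the direction was shared in 558 (67.9%). The exceptions included Tns1, with 5 of 6 probe sets higher, from -0.23 to 0.77, and Prune2, with 1 of 2 higher. Probe sets of a gene share an array and are no replicates.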

How the data were processed

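RNA of 4 tissue samples was measured on 4 Affymetrix arrays. Trizol was used for RNA extraction and 6 ug of RNA went into biotinylated cRNA, per the labels. MAS5 is named in the submitters' processing notes. How it scaled the arrays, and in which version, is not given in the sources used here. Deposited values were taken as the authors' log2 values. No label states that scale, which was read from the range of 1.58 to 13.96, and the pseudocount planned for linear values was not needed. Precision is limited by the number of arrays.

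Groups came from the sample titles. Of 35557 probe sets 21789 had 1 gene symbol in the platform annotation, 1621 several and 12147 none, and only the first were named. For 21698 the gene identifier was in RefSeq (GRCm38.p6), and 0 symbols were updated. The probe set with the highest mean stood for a gene. A gene was kept where its mean over the 4 arrays reached the median over all probe sets' means. Differences were counted at 1.5-fold and 2-fold with no test.

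The comparison, its members and the 52 gene lists were chosen with earlier results of these data known, so no list is independent support for a direction. Named genes, other than predicted or clone names, are from the 15 highest and 15 lowest differences, up to 5 genes of each list by size of difference, the 6 largest in each class of array standing apart, the 10 genes 1.5-fold apart with the smallest forebrain difference, and genes 1.5-fold apart in both tissues. Hippocampal markers, the dopamine receptors and Ppp1r1b, the other microRNA loci and the genes at the thresholds stand outside that rule. Promoter shares are given for lists with an entry for at least 80% of their genes, which was not so for deep-layer factors and for the genes 1.5-fold higher or lower. Alternatives were centring, quantile normalization, other filters, the mean of probe sets, other ratios for an array standing apart and, added after the data were seen, removal of a running median over 501 genes. Scripts were tested on simulated data. Python 3.11.15, numpy 2.4.6, pandas 2.3.3 and matplotlib 3.10.9 were used.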

Additional observations from a re-analysis of the deposited data

Results flagged for a closer look

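The following differences had opposite signs in hippocampus and forebrain. With 1 array per group, none of these differences between tissues was tested. The list medians were -0.086 in hippocampus and 0.05 in forebrain for hippocampal field markers (0.013 in hippocampus after centring of the arrays), 0.13 and -0.08 for the GABAergic interneuron lineage, -0.26 and 0.07 for choroid plexus markers, 0.19 and -0.10 for meningeal fibroblast markers, and 0.10 and -0.06 for pericyte and smooth muscle markers. Among single genes, Acta2, the smooth muscle actin, differed by 0.69 in hippocampus and -0.24 in forebrain, Rarb by 0.72 and -0.20, and Rxrg by 0.67 and -0.39. The Y-linked genes went lower in hippocampus and higher in forebrain: Uty by -0.35 and 0.79, Eif2s3y by -0.33 and 0.89, and Kdm5d by -0.26 and 0.57.

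Some signal lay outside the genes kept. Of 5575 probe sets with no symbol or several at or above the filter, 17 differed by 2-fold in hippocampus, 9 higher and 8 lower. At 1.5-fold 111 of the 5575 were higher and 266 lower, against 42 and 32 in forebrain. Lower probe sets thus outnumbered higher ones here, whereas of the 11013 genes kept 54 were higher (0.49%) and 47 lower (0.427%). In each direction and in both tissues, a larger share of these probe sets than of the genes kept passed 1.5-fold. Among the 8925 genes below the filter, 4 differed by 2-fold, all higher after ethanol: Tfap2b by 1.34, from 5.77 to 7.11, Usp17ld by 1.22, Ndst4 by 1.06 and Slitrk6 by 1.04. The median difference of the genes below the filter was 0.08.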

How the results depend on the processing

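With 1 array per group there is no error, and a deviating array cannot be told apart from treatment. No paired analysis was possible because each group has 1 array and its number is only a name. For the same reason no replicate could be left out. No named gene past 1.5-fold changed direction. Of 50 list medians, 19 changed sign after centring, 7 after quantile normalization and 12 after removal of a running median, all of them lists with medians between -0.1 and 0.1. After centring of the arrays, 116 genes were 1.5-fold higher and 19 lower, 10 and 0 at 2-fold, and the PBS array stood apart in 79 against 46. After quantile normalization the counts were 88 and 31, and the median of a list minus that of all genes was 0.012 for neurofilament and growth cone genes and -0.030 for ribosomal protein genes. With the 75th percentile filter the counts were 23 and 30, 3 and 0 at 2-fold, the PBS array stood apart in 23 and the ethanol array in 12 against 26. List medians minus that of all genes were then -0.47 for dorsal pallial regulators, 0.50 for striatal markers, -0.076 for FGF, BMP and hedgehog genes, -0.12 for endothelial markers, 0.12 for alcohol and retinoid genes, -0.22 for histone genes and 0.19 for microRNA genes. Without a filter the counts were 131 and 77, 10 were 2-fold higher, the PBS array stood apart in 84 and the ethanol array in 55, and the lists gave 0.33 for thalamic markers, 0.33 for Cajal-Retzius markers and -0.21 for histone genes. With a running median taken off, the counts were 98 and 27 and the PBS array stood apart in 70. With the mean of a gene's probe sets 6 named genes moved, of which Tns1 (0.13) and Ntng1 (0.53) were no longer past 1.5-fold. Named genes that fell below the filter in this setting, Eif4e1b among them, were not compared. With the ratio at 3 the ethanol array stood apart in 13. The filters change which genes are counted, and otherwise the cause was not tested.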
